A study of Mus musculus with 20 samples.

Results

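The transcription factor p53 (Trp53 in the mouse) switches on a set of genes that slow division, trigger cell death or repair damage. The members described here are 10 of its known targets: Mdm2, Ccng1, Bax, Bbc3, Phlda3, Eda2r, Trp53inp1, Zmat3, Aen and Plk2. They were taken by name, in a choice made with earlier results of these data known, and matched by Ensembl identifier and GENCODE M21 symbol among 46603 identifiers. All 10 were found. They also passed the filter on low counts, which left 14661 genes for testing. Phlda3 and Eda2r owed this to other groups, since only 3 and 1 of the 5 wild-type baseline libraries reached the filter's cutoff of 0.391 CPM. CPM is the count of a gene per 1000000 counts of its library, after TMM scaling, which aligns libraries on the bulk of their genes.

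The study sequenced poly(A) RNA of whole liver from male mice aged 2 months, in 20 libraries. Wild-type (WT) mice were C57BL/6J bought from a vendor, and EedHepKO mice (KO) were bred in the laboratory. In the latter, Cre driven by the albumin promoter removes a loxP-flanked part of Eed, so that the gene is lost in hepatocytes. These bulk counts do not show which other liver cells keep it. Partial hepatectomy (PHx) took out liver lobes 1, 2 and 3, which served as the 5 baseline libraries (0 h) of each genotype. Lobes 4, 5 and 6 of the same mice gave its 5 libraries after PHx, of which 1 was taken at 30 h, 2 at 40 h and 2 at 48 h. Because of this layout, genotype cannot be told apart from colony of origin, nor PHx from lobe. After such surgery the remaining hepatocytes re-enter the cell cycle and the liver regrows.

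In unstressed cells p53 is kept low by MDM2, a ubiquitin ligase that marks it for destruction and is itself a p53 target. The Cdkn2a locus encodes a pair of unrelated proteins: ARF, which binds MDM2 and so frees p53, and p16INK4a, an inhibitor of cyclin-dependent kinases. EED is a core subunit of polycomb repressive complex 2 (PRC2), which marks chromatin with trimethylated histone H3 lysine 27, and the Cdkn2a locus is among its best-known silenced regions. The question was therefore whether p53 targets follow the rise of Cdkn2a in KO livers. These counts do not separate the ARF transcript from the p16INK4a transcript.

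The p53 protein binds DNA as a tetramer at a pair of adjoining decamers, each known as a half-site. RefSeq promoter sequence on GRCm38.p6 (mm10), from 250 bases before to 50 bases after each start site, was available for 8 members. A perfect match to the p53 half-site consensus, which reads alike on both strands, lay in the windows of 4 of them. In each line below the decamer is in capitals, within 30 bases of the gene's own strand.
Mdm2: agtcggatagGAACTTGCCTagcgaccatt
Ccng1: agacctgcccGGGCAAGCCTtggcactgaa
Bax: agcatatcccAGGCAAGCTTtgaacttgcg
Aen: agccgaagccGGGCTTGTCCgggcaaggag
The Mdm2 sequence lies at chr10:117710925-117710954 on the minus strand, and its decamer begins at -186 relative to the start site. The Ccng1 sequence, at chr11:40755452-40755481 on the minus strand, and the Bax sequence, at chr7:45467080-45467109 on the minus strand, have decamers that begin at -185 and -201. The Aen sequence, at chr7:78895927-78895956 on the plus strand, begins its decamer at -121 from one annotated start and at 11 from another. In Ccng1 and Bax a second decamer with the core C and G kept, at most 1 base away, completed a pair with at most 2 mismatches. In all, 45.5% of the members' 11 windows held a half-site, against 8.36% of 32851 windows of all genes. The same Aen decamer counted in 2 overlapping windows. By gene, 4 of 8 members held a half-site, against 2582 of 27025 genes. A pair stood in 0.682% of the windows of all genes. Such matches describe the letters of these windows and are not evidence of binding.

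No half-site lay in the windows of Bbc3, Phlda3, Eda2r and Plk2, which says only that these letters are not in this stretch. The bases from 110 to 11 before the start sites of Phlda3 and Eda2r are shown because these members differed most between genotypes.
Phlda3: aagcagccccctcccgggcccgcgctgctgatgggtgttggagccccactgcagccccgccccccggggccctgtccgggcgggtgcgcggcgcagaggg
Eda2r: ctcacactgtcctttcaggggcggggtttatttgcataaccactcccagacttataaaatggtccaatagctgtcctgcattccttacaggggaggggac
The Phlda3 stretch is chr1:135765975-135766074 on the plus strand and holds 80.0% G and C. The Eda2r stretch is chrX:97377220-97377319 on the minus strand and holds 50.0%. Neither overlaps an annotated exon.

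The labels were checked first. Eed RNA lay between 15.3 and 18.4 CPM (median 16.7) in WT baseline libraries and between 14.6 and 23.2 (median 16.8) in WT libraries after PHx. It lay between 3.83 and 7.52 (median 5.57) in KO baseline libraries and between 2.75 and 5.82 (median 4.86) in KO libraries after PHx, so the genotypes did not overlap. Library totals ran from 21634890 to 30461351 counts, and all 8 hepatocyte markers, Alb among them, were detected in every group. Libraries of 1 group came from separate mice. WT baseline replicate 1, the only library without a mouse number, stood apart from its group: in chi-square tests of the counts, its pairs gave 331 to 361 per degree of freedom, against 27.2 to 40.7 for the other pairs of WT baseline libraries. It held the lowest Cdkn1a, Phlda3, Eda2r and Aen of that group. Without it no member's call changed in the 3 comparisons that use it (genotype at baseline, the WT response and the difference between the responses). In bulk tissue, fewer cells of a type and less RNA per cell cannot be told apart.

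Cdkn2a was nearly silent in WT liver and present in every KO library. Its WT baseline levels were 0, 0.05, 0, 0.0459 and 0.0917 CPM, a total of 4 counts, and its KO baseline levels were 9.89, 5.16, 8.21, 7.60 and 6.34 CPM. After PHx the WT levels were 0.262, 0, 0, 0.0709 and 0.412 CPM and the KO levels 9.05, 8.41, 5.34, 10.8 and 6.34 CPM. The genotypes were thus separate at both stages. The log2 fold change of KO against WT was 7.37 ± 0.78 (SE) at baseline (edgeR adjusted p = 3.1e-06) and 5.68 ± 0.66 after PHx (edgeR adjusted p = 7.06e-06). With each compared library left out in turn, these values ran from 7.09 to 7.93 and from 5.36 to 6.53. Cdkn2a passed the filter through KO libraries, since 0 of 5 WT libraries at baseline and 1 of 5 after PHx reached its cutoff. These folds therefore rest on very few WT counts. Within KO, the response to PHx was 0.10 ± 0.51 (edgeR adjusted p = 0.893). The neighbouring Cdkn2b, which encodes the kinase inhibitor p15INK4b, was higher in KO by 3.66 ± 0.74 at baseline and by 4.54 ± 0.71 after PHx (edgeR adjusted p = 0.00204 and 0.000147). For Cdkn2b, 0 of 5 WT libraries at baseline and 3 of 5 after PHx reached the filter's cutoff. Unlike that of Cdkn2a, the KO response of Cdkn2b was called. It stood at 4.68, 2.03, 3.45, 2.53 and 2.11 CPM in KO at baseline and at 12.5, 24.7, 3.66, 22.3 and 4.21 in KO after PHx, a response of 2.18 ± 0.63 (edgeR adjusted p = 0.0158). Without the KO library of mouse 8 after PHx this was 1.82 and was not called (edgeR adjusted p = 0.0533). The WT response of Cdkn2b was 1.31 ± 0.74 (edgeR adjusted p = 0.221), and its level was higher after PHx in all 9 mice sampled at both stages. Trp53 RNA itself passed the test in no comparison, with log2 fold changes of KO against WT of 0.20 ± 0.40 at baseline and -0.53 ± 0.40 after PHx. In KO livers after PHx it was uneven, at 5.06, 11.7, 30.8, 31.2 and 6.20 CPM.

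At baseline 3 of the 10 members were higher in KO and none was lower: Phlda3, Eda2r and Zmat3. Of all genes tested, 11.1% were called higher and 4.89% lower in this comparison, 16% in either direction (edgeR, adjusted p under 0.05). The median log2 fold change of the members was 0.37, beside -0.03 for all genes tested. After PHx 5 members were higher in KO and none was lower, with Plk2 and Trp53inp1 added to the same 3, where 16% of all genes were called higher and 8.20% lower, 24.2% in all. Their median was 0.86, beside -0.01 for all genes. Mdm2, Ccng1, Bax, Bbc3 and Aen passed the test at neither stage, so in this fit Cdkn2a was high in KO without a called rise in these 5 members. Calls of some of them under other settings are given with each gene. The comparisons between genotypes and those between stages share libraries, and their values are given side by side.

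The response to PHx reached more of the members than the genotype did at baseline, by count. In WT, 6 members were higher after PHx (Mdm2, Bax, Phlda3, Eda2r, Zmat3 and Aen) and 1 was lower (Bbc3), where 11.4% of all genes were called higher and 8.68% lower, 20.1% in all. In KO, 7 members were higher (Mdm2, Ccng1, Phlda3, Eda2r, Zmat3, Aen and Plk2) and none was lower, where 17.5% of all genes were called higher and 12.1% lower, 29.5% in all. The member medians were 0.76 in WT and 0.98 in KO, beside 0.04 and 0.10 for all genes. In these comparisons Cdkn2a itself was not called in either genotype, while its neighbour Cdkn2b was called higher in KO. No member passed the test of the difference between the responses, KO minus WT, in which 0.164% of all genes were called higher and 0.225% lower, 0.389% in all. At an unadjusted p under 0.05 edgeR gave 3 members there (Bax, Bbc3 and Trp53inp1), and DESeq2 called 0.

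**Figure D1:**
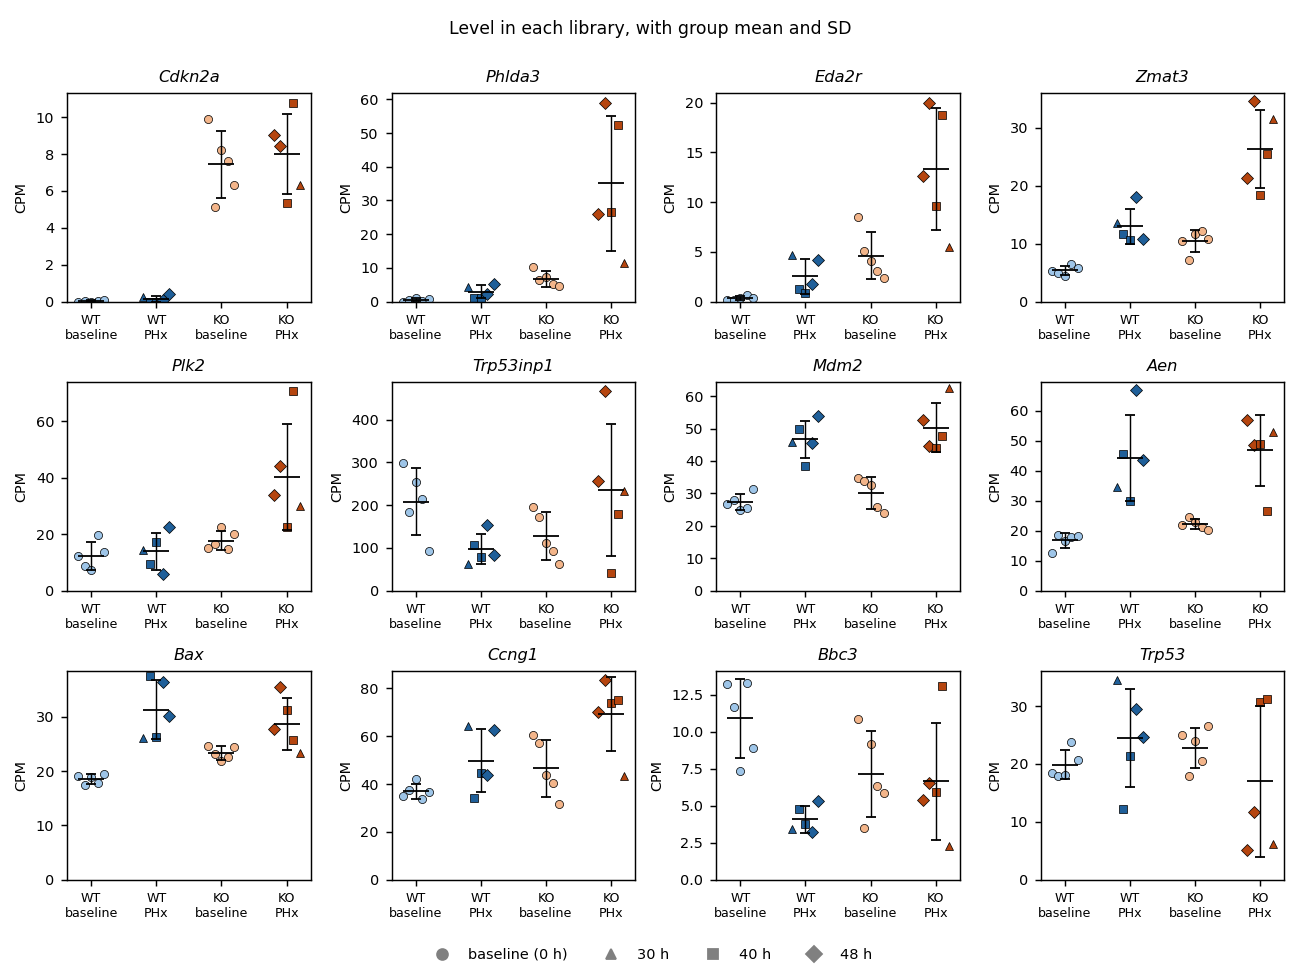
Level of Cdkn2a, the 10 p53 targets and Trp53 in each library, in CPM on a linear axis from 0, by group. Points are libraries, with shape giving the hours after PHx, long bars are group means and error bars are SDs (n = 5). Phlda3, Eda2r and Zmat3 are separate between genotypes at both stages, while in Mdm2 and Aen every library after PHx lies above every baseline library of its genotype.

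**Figure D2:**
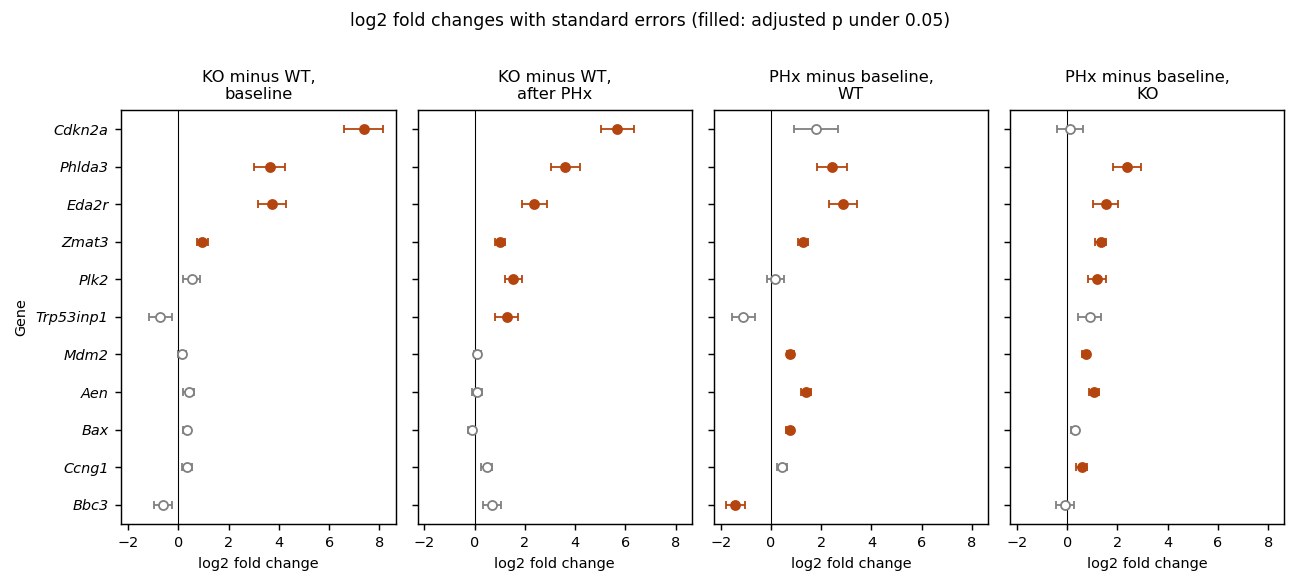
Log2 fold changes from the edgeR fit, with standard errors derived from its F statistics, for Cdkn2a and the 10 p53 targets in 4 comparisons. Filled points have an adjusted p under 0.05. Cdkn2a is filled in both comparisons of genotype and in neither response to PHx, and Mdm2 and Aen show the opposite pattern.

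Among the members that act back on p53, Mdm2 followed the surgery and not the genotype. It lies on chromosome 10 (ENSMUSG00000020184, mm10 chr10:117688875-117710758, minus strand). Mdm2 stood at 26.8, 28.04, 24.9, 25.6 and 31.2 CPM in WT at baseline and at 34.8, 33.9, 32.5, 25.9 and 23.9 in KO at baseline. After PHx it stood at 46.0, 49.9, 38.4, 45.5 and 53.8 CPM in WT and at 52.5, 44.7, 44.0, 47.6 and 62.5 in KO. Within each genotype, every library after PHx lay above every baseline library, whereas the genotypes overlapped at both stages. The log2 response of Mdm2 was 0.77 ± 0.14 in WT (1.71-fold, edgeR adjusted p = 0.00123) and 0.73 ± 0.14 in KO (1.66-fold, edgeR adjusted p = 0.0019). KO minus WT was 0.14 ± 0.14 at baseline and 0.10 ± 0.14 after PHx (edgeR adjusted p = 0.527 and 0.63). Mdm2 was higher after PHx in all 4 WT and all 5 KO mice sampled at both stages.

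Ccng1 encodes cyclin G1, which recruits a phosphatase to MDM2 and limits p53 (chromosome 11, chr11:40748552-40755311, minus strand). Its levels were 34.97, 37.3, 41.9, 33.8 and 36.5 CPM in WT at baseline and 60.3, 57.2, 43.7, 40.3 and 31.5 in KO at baseline. After PHx they were 64.1, 34.1, 44.6, 43.7 and 62.5 CPM in WT and 70.3, 83.7, 73.9, 75.3 and 43.2 in KO. The groups overlapped in each comparison. The 1 call, the response in KO, was 0.57 ± 0.21 (1.49-fold, edgeR adjusted p = 0.0432), and it was lost when any of 7 single libraries was left out, at log2 values from 0.45 and an edgeR adjusted p of up to 0.118. These were the KO baseline libraries of mice 10, 11 and 12 and the KO libraries of mice 7, 8, 10 and 11 after PHx. With no filter or with only the groups compared the edgeR adjusted p was 0.0858. Without the KO library of mouse 12 (30 h), in which Ccng1 was lowest after PHx, KO minus WT after PHx was 0.60 (edgeR adjusted p = 0.0301), against 0.48 ± 0.21 (0.101) with it. Without both 30 h libraries it was 0.71 (edgeR adjusted p = 0.0169). With library size alone Ccng1 was called between genotypes at baseline (0.83) and after PHx (0.88) and in the WT response (0.81, edgeR adjusted p = 0.0295, 0.0184 and 0.0298).

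The members that promote cell death did not move as 1 group. Bax, which permeabilises the mitochondrial outer membrane (chromosome 7, chr7:45461697-45466898, minus strand), was tight at baseline. It stood at 19.2, 17.3, 18.9, 17.8 and 19.4 CPM in WT and at 24.6, 23.1, 21.8, 22.6 and 24.5 in KO. After PHx it stood at 26.2, 37.4, 26.2, 36.5 and 30.0 CPM in WT and at 27.8, 35.4, 31.2, 25.8 and 23.3 in KO. Every KO baseline library thus lay above every WT baseline library, but the log2 difference of 0.33 ± 0.14 did not pass the test (1.26-fold, edgeR adjusted p = 0.115). It was called by DESeq2 (0.36, DESeq2 adjusted p = 0.0399) and by edgeR with only the groups compared (0.36, edgeR adjusted p = 0.00797) or library size alone (0.81, edgeR adjusted p = 0.00303). Bax rose after PHx in WT by 0.75 ± 0.14 (1.69-fold, edgeR adjusted p = 0.00129), and the KO response was 0.30 ± 0.14 (edgeR adjusted p = 0.109). With library size alone the KO response was 0.58 and was called (edgeR adjusted p = 0.0197). The difference between these responses, -0.46 ± 0.20, did not pass (edgeR adjusted p = 0.325). Bax shares 192 exon bases on the same strand with the gene Gm45808, so part of its reads could be counted for either.

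Bbc3 encodes PUMA, which disables the survival proteins that hold BAX in check, and it was the only member called lower in the fit to all 4 groups (chromosome 7, chr7:16308393-16318205, plus strand). Its WT levels were 13.2, 11.7, 7.36, 13.3 and 8.90 CPM at baseline and 3.40, 4.74, 3.73, 3.23 and 5.29 after PHx. All 5 WT libraries after PHx lay below the lowest WT baseline library. The log2 response in WT was -1.42 ± 0.36 (0.375-fold, edgeR adjusted p = 0.0105). With the mouse number as a replicate block it was -1.27 and the call was lost (edgeR adjusted p = 0.0722), as it was with library size alone, at -1.05 (edgeR adjusted p = 0.0661). In KO the levels overlapped, at 10.9, 3.47, 9.14, 6.36 and 5.87 CPM at baseline and 5.36, 6.54, 5.95, 13.1 and 2.27 after PHx, with a response of -0.10 ± 0.36 (edgeR adjusted p = 0.846). The responses differed by 1.31 ± 0.51, which did not pass (edgeR adjusted p = 0.261). KO minus WT was -0.61 ± 0.36 at baseline and 0.71 ± 0.36 after PHx (edgeR adjusted p = 0.262 and 0.163), and without the KO library of mouse 12 after PHx the latter was 0.92 (edgeR adjusted p = 0.0427). With library size alone it was 1.18 (edgeR adjusted p = 0.0413), and without the KO library of mouse 11 after PHx it was 0.26 (edgeR adjusted p = 0.598).

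Aen encodes a nuclease that digests DNA during apoptosis (chromosome 7, chr7:78895854-78911209, plus strand), and like Mdm2 it rose with the surgery. Its levels were 12.6, 18.5, 16.5, 17.7 and 18.3 CPM in WT at baseline and 21.97, 24.7, 22.9, 21.3 and 20.3 in KO at baseline. After PHx they were 34.6, 45.7, 29.9, 66.9 and 43.5 CPM in WT and 56.7, 48.6, 48.9, 26.5 and 52.9 in KO. In both genotypes every library after PHx lay above every baseline library. The response of Aen was 1.40 ± 0.21 in WT (2.64-fold, edgeR adjusted p = 0.000256) and 1.07 ± 0.21 in KO (2.10-fold, edgeR adjusted p = 0.00198). At baseline the genotypes were separate, but KO minus WT, 0.41 ± 0.21, did not pass (1.33-fold, edgeR adjusted p = 0.194). It was called for Aen with only the groups compared (0.44, edgeR adjusted p = 0.0117) and with library size alone (0.88, edgeR adjusted p = 0.00693). After PHx it was 0.08 ± 0.21 (edgeR adjusted p = 0.807).

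Phlda3, a small membrane-binding protein that competes with the survival kinase AKT for membrane lipids, was near 0 in WT at baseline and highest in KO after PHx. It lies on chromosome 1 (chr1:135766119-135769136, plus strand), downstream of the first stretch printed above. Phlda3 stood at 0, 0.550, 1.13, 0.321 and 0.642 CPM in WT at baseline and at 10.4, 6.30, 7.24, 5.11 and 4.55 in KO at baseline. After PHx it stood at 4.40, 1.17, 1.18, 2.38 and 5.32 CPM in WT and at 25.9, 59.0, 26.6, 52.3 and 11.5 in KO. The 4 groups thus formed an order from WT baseline to WT after PHx, KO baseline and KO after PHx, in which the middle groups overlapped. KO minus WT was 3.63 ± 0.61 at baseline (12.4-fold, edgeR adjusted p = 0.000429) and 3.60 ± 0.58 after PHx (12.1-fold, edgeR adjusted p = 0.000176). The response to PHx was 2.42 ± 0.60 in WT and 2.38 ± 0.55 in KO (5.34-fold and 5.22-fold, edgeR adjusted p = 0.0088 and 0.00446). With the mouse number as a replicate block the WT response was 1.76 and was not called (edgeR adjusted p = 0.0621). Of the 4 WT mice with both samples, the ratio of Phlda3 after PHx to baseline was 2.14 in mouse 2, 1.04 in mouse 3, 7.40 in mouse 4 and 8.29 in mouse 5.

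Eda2r encodes a receptor of the tumour necrosis factor family whose ligand is ectodysplasin A2 (chromosome X, chrX:97333840-97377216, minus strand). Its WT levels were 0.130, 0.200, 0.3602, 0.688 and 0.321 CPM at baseline and 4.71, 1.30, 0.837, 1.81 and 4.19 after PHx. Its KO levels were 8.46, 5.11, 4.03, 3.07 and 2.39 CPM at baseline and 12.7, 20.0, 9.57, 18.8 and 5.44 after PHx. The genotypes were separate at each stage, and in KO the stages overlapped. KO minus WT was 3.72 ± 0.57 at baseline (13.2-fold, edgeR adjusted p = 0.000146) and 2.37 ± 0.50 after PHx (5.17-fold, edgeR adjusted p = 0.00195). The response was 2.87 ± 0.55 in WT (7.33-fold, edgeR adjusted p = 0.00168) and 1.53 ± 0.49 in KO (2.88-fold, edgeR adjusted p = 0.0251). The KO response lost its call when any of 5 single libraries was left out (KO baseline of mice 10, 11 and 12, KO after PHx of mice 8 and 11), with log2 values from 1.31 and an edgeR adjusted p of up to 0.0702. The difference between the responses, -1.35 ± 0.72, did not pass (edgeR adjusted p = 0.424).

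Zmat3 encodes a zinc finger protein that binds RNA and has been linked to growth control by p53 (chromosome 3, chr3:32334792-32366014, minus strand). Of the 3 members called by genotype at both stages it had the smallest standard errors. Zmat3 stood at 5.20, 4.90, 4.48, 6.51 and 5.83 CPM in WT at baseline and at 10.4, 7.18, 11.6, 12.2 and 10.8 in KO at baseline. After PHx it stood at 13.6, 11.7, 10.6, 18.04 and 10.9 CPM in WT and at 21.3, 34.5, 18.5, 25.5 and 31.4 in KO. None of the groups overlapped in any of the 4 comparisons. KO minus WT was 0.95 ± 0.21 at baseline (1.94-fold, edgeR adjusted p = 0.00393) and 1.02 ± 0.21 after PHx (2.02-fold, edgeR adjusted p = 0.00139). The response was 1.27 ± 0.21 in WT and 1.33 ± 0.21 in KO (2.41-fold and 2.52-fold, edgeR adjusted p = 0.000531 and 0.000541). The difference between the responses of Zmat3 was 0.06 ± 0.29 (edgeR adjusted p = 0.956).

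Plk2, a kinase of the polo family that acts in the cell cycle and in stress responses (chromosome 13, chr13:110395046-110400844, plus strand), differed by genotype after the surgery. Its levels were 12.3, 8.70, 7.36, 19.6 and 13.5 CPM in WT at baseline and 15.1, 16.4, 22.4, 14.8 and 20.1 in KO at baseline. After PHx they were 14.3, 9.44, 17.2, 5.81 and 22.6 CPM in WT and 33.95, 44.3, 22.6, 70.8 and 30.1 in KO. After PHx the genotypes met at 22.6 CPM, the highest WT and the lowest KO library. KO minus WT after PHx was 1.54 ± 0.35 (2.90-fold, edgeR adjusted p = 0.00321), against 0.53 ± 0.34 at baseline (edgeR adjusted p = 0.315). The response of Plk2 was 1.18 ± 0.34 in KO (2.27-fold, edgeR adjusted p = 0.016) and 0.17 ± 0.34 in WT (edgeR adjusted p = 0.768). The KO call was lost with the mouse number as a replicate block, at 1.09 (edgeR adjusted p = 0.0742), and without the KO library of mouse 11 after PHx, at 0.85 (edgeR adjusted p = 0.0551). The difference between the responses, 1.01 ± 0.48, did not pass (edgeR adjusted p = 0.374).

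Trp53inp1 encodes a stress protein that aids p53 and takes part in autophagy (chromosome 4, chr4:11156431-11174379, plus strand). It varied widely between libraries of the same group. Its levels were 298, 184, 254, 214 and 91.9 CPM in WT at baseline and 196, 172, 111, 93.0 and 61.5 in KO at baseline. After PHx they were 62.9, 106, 79.5, 154 and 84.2 CPM in WT and 256, 467, 41.6, 179.8 and 232 in KO. All groups overlapped. KO minus WT after PHx was 1.27 ± 0.45 (2.42-fold, edgeR adjusted p = 0.0463). This call was lost when any of 8 single libraries after PHx was left out (WT mice 1, 2, 3 and 5, KO mice 7, 8, 11 and 12), with log2 values from 0.86 and an edgeR adjusted p of up to 0.181. It was also lost with no filter, with a term for time, without the 30 h libraries and with only the groups compared (edgeR adjusted p = 0.0534, 0.0672, 0.124 and 0.132). Trp53inp1 was lower after PHx in all 4 WT mice and higher in 4 of 5 KO mice. The responses were -1.10 ± 0.45 in WT and 0.89 ± 0.45 in KO (edgeR adjusted p = 0.0922 and 0.137), and their difference was 1.99 ± 0.64 (edgeR adjusted p = 0.182). With only the groups compared the WT response was -1.06 and was called lower (edgeR adjusted p = 0.0327). With each library left out in turn the KO response ran from 0.47 to 1.16, and it was called at 1.16, without the KO library of mouse 10 after PHx (edgeR adjusted p = 0.0186). Leaving out that library, the lowest of its group, brought the difference to 2.25 (edgeR adjusted p = 0.0213), the 1 call of a member's difference among all the libraries left out in turn. Without that library the calls of a difference over all genes also went from 24 higher and 33 lower to 412 and 296, among them 4 other p53 targets (higher) and 6 of 10 cycling markers (lower).

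**Figure D3:**
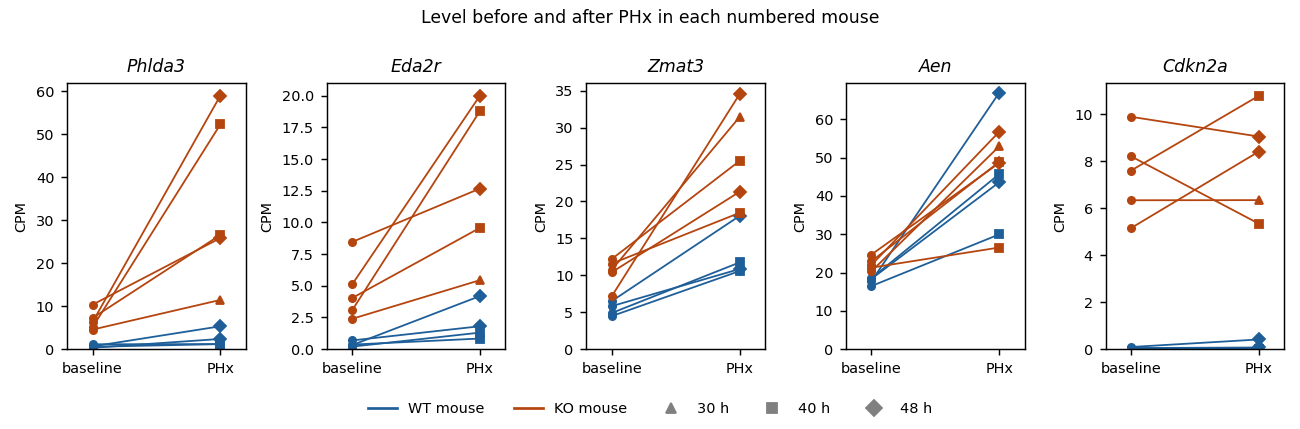
Level of Phlda3, Eda2r, Zmat3, Aen and Cdkn2a at baseline and after PHx in the 9 mice whose libraries carry a mouse number at both stages, in CPM. Each line is a mouse (4 WT, 5 KO) and the marker shape gives the hours after PHx. The 4 p53 targets are higher after PHx in all 9 mice, while Cdkn2a rises in 3 KO mice and falls in 2, with 1 of the 3 nearly level at 1.00 times its baseline. The share of all genes higher in all 9 mice was not computed.

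Within the mice sampled at both stages, 5 members were higher after PHx in all 9: Mdm2, Phlda3, Eda2r, Zmat3 and Aen. The share of all genes that rose in all 9 mice was not computed, so this count has no background beside it. The ratio of Zmat3 after PHx to baseline ran from 1.86 to 2.77 in the 4 WT mice and from 1.59 to 4.81 in the 5 KO mice. That of Mdm2 ran from 1.55 to 1.78 in WT and from 1.32 to 2.61 in KO, and these ranges of the genotypes overlapped for both genes. Bbc3 was lower after PHx in all 4 WT mice and in 3 of 5 KO mice. Bax was higher in all 4 WT and 4 of 5 KO mice, Ccng1 and Plk2 in 3 of 4 WT and all 5 KO mice.

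Between groups, the libraries of 5 members did not overlap at baseline, all higher in KO (Bax, Phlda3, Eda2r, Zmat3 and Aen), where 15.6% of all genes tested were higher without overlap. After PHx the count was 3 (Phlda3, Eda2r and Zmat3), where the share over all genes was 7.05%. In the WT response 6 members were above and 1 was below without overlap, where the shares over all genes were 6.91% and 10.9%. In the KO response 5 were above (Mdm2, Phlda3, Zmat3, Aen and Plk2), where the share was 6.19%.

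Compared per kilobase of exon, the members spanned a wide range of levels within a group. In WT liver at baseline Trp53inp1 led with 32.2 ± 12.03 CPM per kilobase (SD, n = 5), followed by Bax with 11.8 ± 0.573 and Ccng1 with 10.5 ± 0.887. Phlda3, at 0.339 ± 0.268, and Eda2r, at 0.0577 ± 0.0366, were last, under Zmat3 at 0.471 ± 0.0700. In KO liver after PHx Phlda3 reached 22.5 ± 12.8 CPM per kilobase, the second level of the 10 behind Trp53inp1 at 36.3 ± 23.8, and the spreads of these and of Ccng1, at 19.7 ± 4.38, overlapped. By its mean Eda2r was last in every group, but in KO after PHx, at 2.26 ± 1.04, its spread overlapped that of Zmat3, at 2.29 ± 0.588. Only in the KO library of mouse 12 was it the lower of this pair.

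Cdkn1a, which encodes the kinase inhibitor p21 and is the best-known p53 target in cell cycle arrest, was not among the 10 and gave a further view. Its WT levels were 1.37, 11.05, 21.97, 11.1 and 13.4 CPM at baseline and 52.2, 329.7, 104, 305 and 74.7 after PHx. Its KO levels were 75.9, 60.0, 59.1, 74.8 and 54.0 CPM at baseline and 358, 325, 154, 270.0 and 412 after PHx. Every KO baseline library was thus already above every WT baseline library. KO minus WT was 2.46 ± 0.54 at baseline (edgeR adjusted p = 0.0042) and 0.81 ± 0.52 after PHx (edgeR adjusted p = 0.264). The response of Cdkn1a was 3.87 ± 0.58 in WT and 2.23 ± 0.54 in KO (edgeR adjusted p = 0.000205 and 0.00577). Cdkn1a shares 273 exon bases with the unclassified transcript AC167363.2 on the opposite strand, whose reads could not be told apart.

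A wider list of 30 other p53 targets, 29 of them tested, held a part that differed by genotype and a larger part that did not pass the test. At baseline 6 were higher in KO and none was lower, with a list median of 0.13, where 11.1% of all genes were higher and 4.89% lower. Pmaip1, which encodes the death protein NOXA, rose from 0.281 ± 0.0871 to 5.22 ± 2.82 CPM (SD, n = 5; log2 4.22 ± 0.89 SE, edgeR adjusted p = 0.00297). Tnfrsf10b, a death receptor, rose from 0.176 ± 0.124 to 2.38 ± 1.01 CPM (log2 3.79 ± 0.60 SE, edgeR adjusted p = 0.000214). Psrc1, a microtubule protein, had 1 count in WT at baseline against 191 in KO, a ratio of summed rates of 147 with a 95% counting interval from 26.01 to 5822. The other 3 were Cdkn1a, Apaf1 and Dram1, the last a lysosomal protein of autophagy. Calls of Dram1 (1.73 ± 0.54) and Apaf1 (1.30 ± 0.36) were lost in 6 and 2 of 18 alternatives, all of them with a single baseline library left out (edgeR adjusted p up to 0.0866 and 0.0537).

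After PHx 10 of these 29 were higher in KO and 1 was lower, with a list median of 0.48, where 16% of all genes were higher and 8.20% lower. Pmaip1 differed by 6.96 ± 0.92, though its KO libraries ranged from 6.44 to 205 CPM. Sfn, which encodes the cell cycle inhibitor 14-3-3 sigma, differed by 4.60 ± 0.80 and the adenylate kinase Ak1 by 4.58 ± 1.06 (edgeR adjusted p = 2.72e-05, 0.000395 and 0.00383). The lower gene was Ei24, at -0.61 ± 0.17 (edgeR adjusted p = 0.0128), a call lost with library size alone and with only the groups compared (values up to -0.27, edgeR adjusted p up to 0.193). Apaf1, which builds the caspase-activating apoptosome, was called higher in all 4 comparisons, as was Tnfrsf10b, but its WT response of 1.02 ± 0.36 (edgeR adjusted p = 0.0482) was lost in 12 of 19 alternatives.

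In the WT response 5 of the 29 were higher and 3 lower, or 3 and 1 with the mouse number as a replicate block. Over all genes 11.4% were higher and 8.68% lower, so the list's decreases were near that background. The same counts, 3 and 1, were found without WT baseline replicate 1. The increases in WT were led by Psrc1 (272 counts against 1, a ratio of 207 with a 95% counting interval from 36.8 to 8192), Tnfrsf10b (3.91 ± 0.60) and Cdkn1a. Gadd45a, a growth arrest gene, fell by 1.90 on the log2 scale, Dcxr by 1.04 and Rps27l by 0.44 (edgeR adjusted p = 0.0332, 0.0142 and 0.0468). Over 19 alternatives the Gadd45a call was lost in 7, that of Dcxr in 1 and that of Rps27l in 16. In KO 9 were higher and 3 lower, where 17.5% of all genes were higher and 12.1% lower, led by Sfn (4.44 ± 0.80), Pmaip1 (3.55 ± 0.76) and Ak1 (3.02 ± 0.97). The decreases were in Gdf15, a stress hormone, which fell by 2.81, in Fdxr, which fell by 0.92, and in Dcxr, which fell by 0.76 (edgeR adjusted p = 0.00169, 0.0127 and 0.0473). The KO calls of Ak1 and Dcxr were lost in 8 and 10 of 19 alternatives. No gene of the list passed edgeR's test of the difference between responses, in which 10 had an unadjusted p under 0.05 and DESeq2 called 4 higher and 1 lower.

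**Figure D4:**
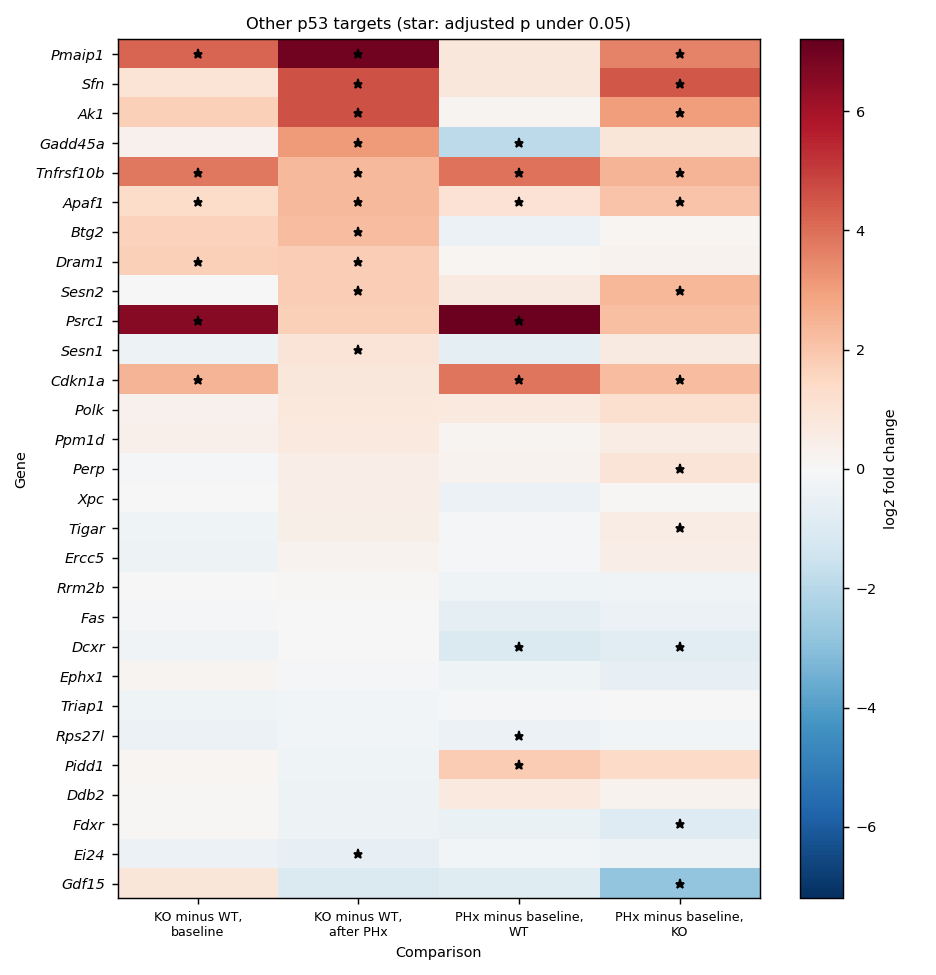
Log2 fold changes of the 29 other p53 targets tested, in the edgeR comparisons of genotype at each stage and of stage in each genotype. Red is higher, blue is lower, stars mark an adjusted p under 0.05, and rows are ordered by KO against WT after PHx. Tnfrsf10b and Apaf1 carry a star in all 4 columns, and most other rows carry none in the baseline comparison of genotypes; the Psrc1 values at WT baseline rest on 1 count.

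Of 10 genes for p53 and its regulators, none passed edgeR's test at baseline between genotypes, where 2 (Usp7 and Atm) had an unadjusted p under 0.05 and DESeq2 called 0. With only the groups compared edgeR called 2 lower, and without the KO baseline library of mouse 8 it called 1 lower. After PHx the kinases Atr (-1.47 ± 0.46) and Prkdc (-1.33 ± 0.43), which sense DNA damage, and Mdm4 (-0.80 ± 0.27), the partner of MDM2, were lower in KO (edgeR adjusted p = 0.0266, 0.0287 and 0.0341). All 3 calls were lost without the 30 h libraries and with library size alone, and in 5, 8 and 7 of 18 alternatives in all. The checkpoint kinase Chek1 rose after PHx by 3.72 ± 0.96 in WT and 2.66 ± 0.91 in KO (edgeR adjusted p = 0.0104 and 0.0338). Usp7, an enzyme that removes ubiquitin from MDM2 and p53, rose in KO by 0.60 ± 0.20 (edgeR adjusted p = 0.0329). With the mouse number as a replicate block these 3 calls were lost. Over 19 alternatives the Chek1 call was lost in 1 in WT and in 6 in KO, and that of Usp7 in 11. The list's counts of 1 higher gene in WT and 2 in KO were near the 11.4% and 17.5% of all genes. After PHx 8.20% of all genes were lower in KO than in WT.

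Cell cycle genes moved with some of these comparisons, unevenly between mice. All 10 cycling markers passed in the WT response and 1 of 10, Mcm2 (2.34 ± 0.84), in the KO response, and none did in either with the mouse number as a replicate block. In KO at baseline 3 of 10 were higher than in WT (Plk1, Ccnb1 and Ccna2), and 9 of 10 had an unadjusted p under 0.05 in edgeR. With any 1 baseline library left out 0 to 2 were called, against 7 with library size alone or DESeq2 and 9 with only the groups compared. After PHx none passed edgeR's test between genotypes, 0 also at an unadjusted p under 0.05. Mki67, a marker of dividing cells, stood after PHx at 82.3, 0.217, 14.2, 0.284 and 328 CPM in WT and at 3.42, 8.17, 119, 25.3 and 3.65 in KO. Among WT libraries after PHx, Mki67 was highest in mice 1 and 5, which also held the highest Phlda3, Eda2r and Ccng1. It was lowest in mice 2 and 4, which held the highest Aen, Bax and Trp53inp1 and also the highest Cdkn1a. Among KO libraries after PHx, Mki67 was highest in mouse 10, whereas Phlda3, Eda2r and Ccng1 were highest in mouse 8. At baseline, KO mice 7 and 8 held the highest Mki67 of their group (34.6 and 26.5 CPM). They also held the highest Eda2r, Ccng1, Mdm2 and Trp53inp1 and the lowest Zmat3 there, while Phlda3 was highest in mice 7 and 10. The part of cell division in the members' values was not tested.

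Some markers of other liver cell types were also called between genotypes. Over all genes 11.1% were higher and 4.89% lower at baseline, and 16% and 8.20% after PHx. Counts of 1 higher marker of 7 or 8 were near these shares. Stellate cell markers were higher in KO in 4 of 8 at baseline and 3 of 8 after PHx, and their summed level ran from 171 to 289 CPM in WT at baseline and from 437 to 581 in KO. Macrophage markers were higher in 2 of 8 at baseline (summed 134 to 228 CPM in WT, 306 to 391 in KO) and in 1 of 8 after PHx. Cholangiocyte markers, of which 7 of 8 were tested, were higher in 1 at baseline and in 5 after PHx, where their summed level ran from 35.2 to 256 CPM in WT and from 136 to 603 in KO. Hepatocyte markers were lower in 1 of 8 at baseline and 2 of 8 after PHx. Endothelial markers were higher in 1 of 8 at each stage. Of 5 lymphocyte markers tested, 1 was higher at baseline and 0 after PHx. All 8 markers of each of these lists were detected in every group, none at 0. Markers also moved with the surgery. In the KO response 4 of 7 cholangiocyte markers were higher, 4 of 5 lymphocyte markers tested were lower, and of 8 macrophage markers 1 was higher and 3 were lower. Of 8 endothelial markers 1 was higher and 2 were lower there, and 2 of 8 stellate cell and 2 of 8 hepatocyte markers were lower. In the WT response 2 of 5 lymphocyte and 2 of 8 endothelial markers and 1 of 8 hepatocyte markers were lower, and of 8 macrophage markers 2 were higher and 1 was lower. The summed lymphocyte markers ran from 7.79 to 26.3 CPM in KO at baseline and from 3.40 to 8.89 after PHx, and in WT from 6.02 to 9.62 and from 1.13 to 5.94. The part of these cell types in the members' levels was not tested.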

How the data were processed

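The authors deposited raw counts of reads per Ensembl gene, 1 table per library. Per the series' design text, RNA with an integrity number above 8 (1000 ng) went into TruSeq libraries for paired-end NovaSeq sequencing, and uniquely mapped reads on mm10 were counted. FastQC 0.11.5 is named in both sources; the trimmer is fastp 0.20.0 in the design text and Trimmomatic 0.36 per the submitters' processing notes. The aligner, counter, strand setting and annotation are not given in the sources used here, so reads of overlapping genes may be shared.

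From these counts, edgeR 4.0.16 in R 4.3.3 fitted 4 group means to all 20 libraries (quasi-likelihood, two-sided, TMM, filterByExpr with a minimum count of 10), with Benjamini-Hochberg adjustment over 14661 genes. The fit was tested on simulated data. Standard errors (SE) were derived as the absolute log2 fold change divided by the square root of the F statistic of its test. DESeq2 1.42.0 was an alternative. Of the identifiers, 46091 had a GENCODE M21 symbol, and 21018 identifiers had no count in any library. The members and gene lists were chosen with earlier results of these data known. Beside all 10 members, Cdkn2a, Cdkn2b, Trp53, Cdkn1a and Eed, the text names the called genes of each list with the 3 largest increases and decreases at 1 CPM or more. Counting intervals are exact, at 95%, and, with no molecular identifiers in the reads, span only the error of counting.

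The labels say that baseline and later samples came from the same mice, and 9 mice are numbered at both stages (WT baseline replicate 1 is not). Deviations of same-mouse libraries from their group means correlated at -0.0549 to 0.152, above 0.1 in 2 of 9 pairs, and those of other pairs at -0.234 to 0.259.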

Additional observations from a re-analysis of the deposited data

Results flagged for a closer look

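Among the 60 sets of 5 values checked for the named genes, 1 held a value that stood apart. Aen in the KO library of mouse 11 after PHx was at 26.5 CPM, while the other 4 KO libraries after PHx lay between 48.6 and 56.7 CPM. It was flagged because its gap to the nearest library was large for the range of the group (Dixon's test at 95%). Chance alone flags about 1 in 20 such sets. Aen remained higher after PHx in this mouse, at 1.25 times its baseline.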

How the results depend on the processing

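Results for the members, the Cdkn2a locus, the other p53 targets, the p53 regulators and the cycling markers were recomputed with RLE scaling, library size alone, no filter, a filter of 1 CPM in 5 samples, a time term, only the groups compared, DESeq2, a replicate block, each replicate left out and, chosen after seeing the data, without the 30 h libraries. The block was run for the responses and their difference, and only the groups compared for all but the difference. Cell type markers were not recomputed. Of 1020 values of the members, 942 kept direction and call. Of 10 members, 3 were called at baseline, 7 with library size alone and 5 with only the groups compared; after PHx 5 were called, and 8 with library size alone. The background moved too: over all genes 1631 were higher and 717 lower at baseline, 3521 and 113 with library size alone and 2846 and 2396 with only the groups compared, and after PHx 2342 and 1202 became 3897 and 296 with library size alone. Leaving out each replicate gave 3 to 3 members at baseline, 4 to 6 after PHx, 7 to 7 in the WT response, 4 to 7 in the KO response (4 without mouse 11 after PHx, where all genes gave 2494 higher and 1924 lower against 2561 and 1770) and 0 to 1 for the difference (1 without KO mouse 10 after PHx). Over all genes these fits called 1234 to 1514 higher and 309 to 724 lower at baseline, 1938 to 2975 and 757 to 2151 after PHx, 1236 to 1848 and 755 to 1363 in the WT response, 1789 to 3404 and 1098 to 2633 in the KO response, and 6 to 412 and 15 to 296 for the difference.

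Library size alone moved the median of all genes to 0.45 at baseline, 0.37 after PHx, 0.40 in the WT response and 0.37 in the KO response, and the higher genes among those called from 69.5% to 96.9%, 66.1% to 92.9%, 56.8% to 86.7% and 59.1% to 80.9%, and for the difference from 42.1% to 15.8%. It also called Mdm2 in KO at baseline (0.63) and after PHx (0.46), close to those medians. The sign changed for Bax after PHx with library size alone (0.28), Aen after PHx without 30 h (-0.0448), and Bbc3 in the KO response with library size alone (0.23) and without 30 h (0.11). For the difference between responses it changed for Zmat3 with library size alone (-0.0198) and no filter (-0.0207), and for Phlda3 with a time term (0.0657), the replicate block (0.45) and without 30 h (0.39). With 1 replicate left out, signs changed within -0.0343 to 0.26 for Aen after PHx, -0.0189 to 0.43 for Plk2 in the WT response, -0.54 to 0.11 for Bbc3 and -0.0601 to 0.21 for Cdkn2a in the KO response, and, for the difference, -0.10 to 0.16 for Zmat3, -0.49 to 0.25 for Phlda3 and -0.0040 to 0.27 for Ccng1. None of these reversed values was called.

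The replicate block kept only the 9 mice with both stages. It thus also dropped WT baseline replicate 1 and the WT 30 h library of mouse 1. With it, 6 members were called in KO and 5 in WT against 7 and 7. Over all genes it called 883 higher and 1099 lower in WT and 1574 and 1732 in KO. Calls of members other than Bbc3, Phlda3 and Plk2 did not change with the block. The causes of these changes were not tested. The 30 h samples number 1 per genotype, which leaves that time without replicates.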
